A study of Mus musculus with 6 samples.

Results

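The 10 genes followed here belong to the heat shock and HMGB families, were taken by name and were measured by RNA-seq counts in spleens of NOD.B10 mice and BL/10 controls. They are 10 of the 47729 genes in the deposited count table: the chaperonin genes Hspd1 and Hspe1, the HSP70 genes Hspa1a, Hspa1b and Hspa8, the HSP110 gene Hsph1, the HSP90 gene Hsp90aa1, the J protein gene Dnajb1, and the chromatin genes Hmgb1 and Hmgb2. NOD.B10 (NOD.B10Sn-H2b/J) is an inbred strain that develops a disease like primary Sjögren's syndrome, and BL/10 (C57BL/10, C57BL10/SnJ in the labels) served as the healthy control strain. All mice were females, none of the analysed groups carried a named transgene or knockout, and each strain had 3 spleens, 1 library per spleen. The age was 26 weeks in the design text, but 2 libraries were labelled 36 weeks, and by the description of the samples these were BL/10 replicates 2 and 3. Age therefore cannot be told apart from strain in those libraries.

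The labels did not settle the strain of the libraries. The sample description and the column name gave one strain for each of the 6 libraries, and the title and strain field gave the other. The strain of the column name was used, and every direction below would be reversed under the titles. For BL/10 replicate 3 the last part of the description also differed from the column name, and only the library number and the strain tie it to its column.

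Chaperones bind unfolded proteins and use ATP to help them fold. HSPD1 and HSPE1 form the folding chamber of mitochondria, the HSP70 proteins work with J proteins that deliver clients and with HSP110 proteins that exchange nucleotide, and HSP90 acts late on kinases and receptors. HMGB1 and HMGB2 bend DNA in the nucleus. Released from damaged cells, HMGB1 and several heat shock proteins have been described as danger signals (DAMPs) that engage Toll-like receptors such as TLR2 and TLR4, which gives them their interest in a disease that depends on the adaptor Myd88. The measurements here are of RNA in whole spleen and say nothing of release from cells. In such bulk samples, fewer cells of a type and less RNA per cell cannot be told apart.

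Many heat shock genes are induced through the heat shock element (HSE), a promoter motif of inverted GAA units bound by heat shock factors. Promoter windows of 300 bases (250 before and 50 after each start, RefSeq, GRCm38.p6) were found for 8 of the 10 genes, and Hspa8 and Hsp90aa1 had no entry. An HSE of 2 units (GAANNTTC or TTCNNGAA, both strands) was in a window of Hspd1, Hspe1, Hspa1a, Hspa1b and Hsph1, and in 15.1% of all 32851 windows. A motif of 3 units (GAANNTTCNNGAA or TTCNNGAANNTTC, both strands, each of which contains the motif of 2 units) was in windows of Hspd1, Hspe1 and Hsph1, and in 0.603% of all windows. The windows of Dnajb1, Hmgb1 and Hmgb2 held neither. Only exact matches within the windows were counted, so an HSE with an imperfect unit or outside a window was not seen. Windows are printed here for the genes whose promoters differ in this motif, with HSE letters of either form in capitals. Hspe1 and Hspd1 lie head to head, and their windows overlap and hold the same stretch of HSE letters. The Hspa1a and Hspa1b windows differ at 4 of 300 bases, and Hmgb2 is shown as the gene with the motif absent from its window. Hspe1 is at chr1:55087898-55088197 on the plus strand, Hsph1 at chr5:149636287-149636586 on the minus strand, Hspa1a at chr17:34972107-34972406 on the minus strand, Hspa1b at chr17:34959189-34959488 on the minus strand and Hmgb2 at chr8:57511593-57511892 on the plus strand.
Hspe1: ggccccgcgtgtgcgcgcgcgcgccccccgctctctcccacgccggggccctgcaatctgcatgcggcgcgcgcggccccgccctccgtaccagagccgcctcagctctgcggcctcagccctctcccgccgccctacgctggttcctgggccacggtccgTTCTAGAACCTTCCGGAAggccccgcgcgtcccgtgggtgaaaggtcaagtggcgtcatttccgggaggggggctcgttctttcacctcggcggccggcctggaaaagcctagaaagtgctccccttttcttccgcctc
Hsph1: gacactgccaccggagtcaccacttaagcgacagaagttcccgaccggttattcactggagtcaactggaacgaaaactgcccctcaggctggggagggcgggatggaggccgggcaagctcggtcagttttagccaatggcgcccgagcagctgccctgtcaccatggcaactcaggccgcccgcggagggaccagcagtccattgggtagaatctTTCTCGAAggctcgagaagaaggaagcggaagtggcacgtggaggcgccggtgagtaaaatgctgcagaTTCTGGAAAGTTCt
Hspa1a: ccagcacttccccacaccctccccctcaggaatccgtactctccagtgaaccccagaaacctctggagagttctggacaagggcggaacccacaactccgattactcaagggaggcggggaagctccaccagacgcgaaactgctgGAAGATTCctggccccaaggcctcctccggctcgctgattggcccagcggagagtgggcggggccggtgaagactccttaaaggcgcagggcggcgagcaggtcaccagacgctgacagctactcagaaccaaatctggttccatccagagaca
Hspa1b: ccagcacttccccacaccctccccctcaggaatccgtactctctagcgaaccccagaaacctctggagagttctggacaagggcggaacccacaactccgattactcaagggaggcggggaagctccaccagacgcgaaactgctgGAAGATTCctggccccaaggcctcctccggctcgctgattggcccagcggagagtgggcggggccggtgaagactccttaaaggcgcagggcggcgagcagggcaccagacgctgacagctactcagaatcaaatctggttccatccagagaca
Hmgb2: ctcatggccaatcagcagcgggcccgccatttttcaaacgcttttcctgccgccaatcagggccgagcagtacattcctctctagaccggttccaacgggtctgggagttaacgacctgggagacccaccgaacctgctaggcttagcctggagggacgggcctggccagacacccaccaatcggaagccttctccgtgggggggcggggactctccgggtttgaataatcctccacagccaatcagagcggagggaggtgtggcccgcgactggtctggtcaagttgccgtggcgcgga

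How well a read of this length can be placed differed among the 10 genes. Reads were 50 bases long and were counted on exons without strand, and under the counting settings a read placed at several sites, or on exons of more than 1 gene, was not counted. All 50-base words of each gene's transcripts were therefore searched in the transcripts of all other genes (GENCODE M21). Hsph1 shared none of its words and Dnajb1 shared 0.412%. At the other end, Hspa1a shared 66.3% of its words, 58.8% with Hspa1b alone, and Hspa1b shared 62.3% with Hspa1a. The shares were 47.5% for Hsp90aa1, 42.1% for Hspd1 and 39.4% for Hspa8, almost all with processed copies of these genes, and between 18.7% and 22.8% for Hspe1, Hmgb1 and Hmgb2. The counts of Hspa1a and Hspa1b are thus uncertain as separate genes. When counts of annotated pseudogenes with at least 20 shared words were added, an alternative chosen after seeing the data, Hmgb1 gained 24.9% and no other of the 10 genes gained more than 0.396%. The same 4 genes passed the test after this addition.

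**Figure D1:**
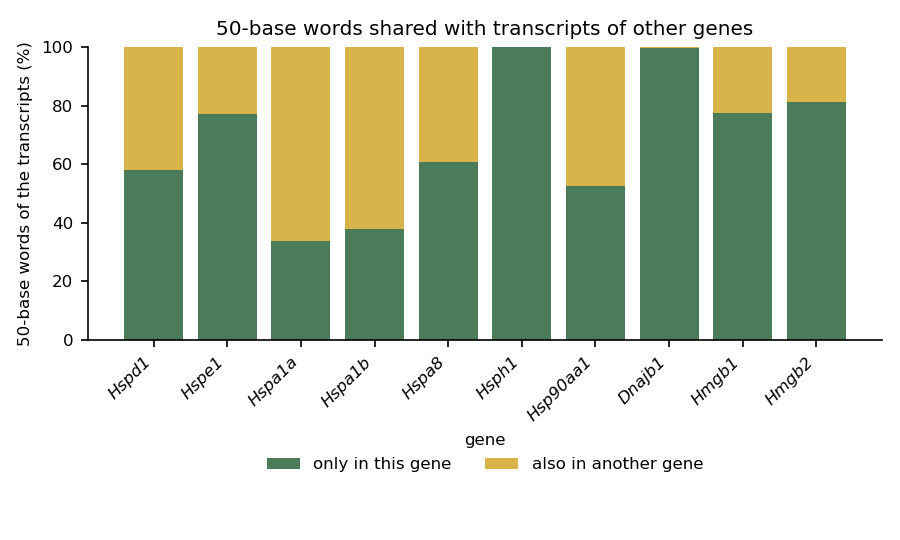
The bars give, for each gene, the percent of 50-base words in its transcripts that occur in no other gene (green) and in at least 1 other gene (yellow). Hspa1a and Hspa1b have the fewest words of their own, 33.7% and 37.7%, and Hsph1 has only words of its own.

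The libraries held between 15662712 and 18298451 counts, so that 3 counts, taken as the floor of detection for counting error only, stood for 0.163 to 0.201 CPM (TMM-normalized counts at the same library size throughout). Replicates of a strain differed beyond counting error (chi-square divided by its degrees of freedom, 13.6 to 83.4). The libraries are of separate mice, and p-values measure the spread between them. Spleen markers were present in all libraries (B cell list 3096 to 5448 CPM summed, T cell list 532 to 1458, macrophage list 4705 to 5892). Genes of the exocrine pancreas, which lies beside the spleen, summed to 22.9 to 31.9 CPM in NOD.B10 and to 14988, 2287 and 116 CPM in BL/10 replicates 1, 2 and 3. With those genes, the hemoglobin genes and the immunoglobulin genes left out, the same 4 of the 10 genes passed the test. This leaves any reads of pancreas tissue in the counts of the 10 genes themselves, and the part of that tissue in their levels was not tested.

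In NOD.B10 spleens 4 of the 10 genes were lower: Hspd1, Hspe1, Hspa8 and Hmgb2. By the fitted fold change Hmgb2 was at 47.0% of its BL/10 level, and the 3 chaperone genes were at 66.7% to 72.4%. None of the 10 was higher. All 10 passed the filter on low counts and were tested in edgeR's quasi-likelihood test over 15330 genes, where 4 had an adjusted p under 0.05. Over all tested genes, 8.22% were called lower and 9.11% higher. At an unadjusted p under 0.05, 6 of the 10 genes and 17.0% of all tested genes were lower. All 10 log2 fold changes (NOD.B10 over BL/10) were negative, against 49.9% of all tested genes, and their median was −0.45, against 0.0006 over all genes. The 3 NOD.B10 libraries lay below the 3 BL/10 libraries for the same 4 genes, which held for 17.5% of all tested genes. DESeq2 called the same 4 genes lower, with 8.74% of the genes it tested called lower. The 10 genes were chosen with results of these data known, and Hspd1 is among the genes the study itself picked from these libraries, so its direction is not independent evidence.

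The number of called genes depended on single libraries. Without NOD.B10 replicate 1 only Hspe1 passed the test, without NOD.B10 replicate 2 or 3 the count was 2, and without BL/10 replicates 1, 2 and 3 it was 5, 3 and 2. Without BL/10 replicate 1, both remaining BL/10 libraries were labelled 36 weeks, so strain and labelled age cannot be told apart in that fit. Hspe1 was called in 6 of 6 of these leave-one-out fits, Hmgb2 in 4, Hspa8 in 2 and Hspd1 in 1. The count over all tested genes also moved, from 2656 in the full fit to 1269, 2012 and 1395 without NOD.B10 replicates 1, 2 and 3. It was 4107, 1580 and 1744 without BL/10 replicates 1, 2 and 3. With both libraries labelled 36 weeks left out, the 1 remaining BL/10 library was set against 3 NOD.B10 libraries and assumed to vary like them, and only Hspe1 was called.

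**Figure D2:**
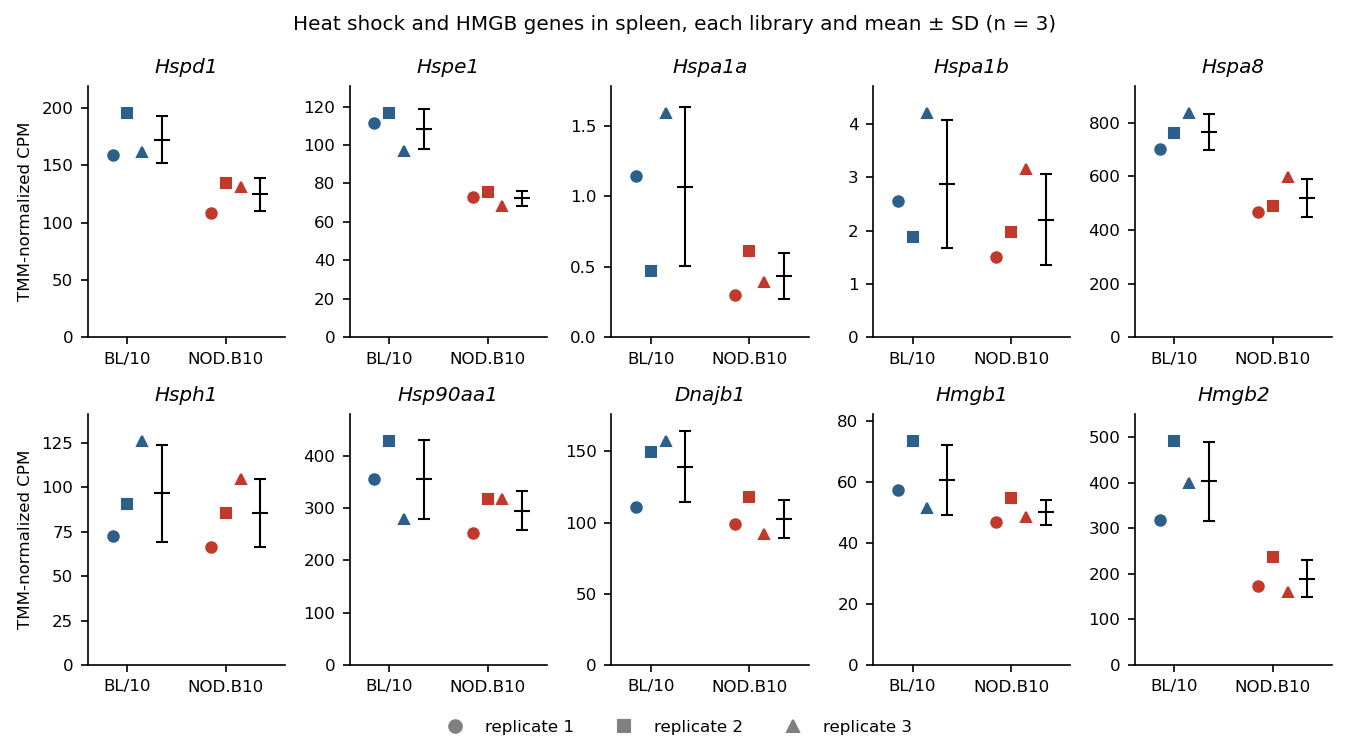
Each panel plots 1 gene in TMM-normalized CPM from 0 (vertical axis) in the BL/10 (blue) and NOD.B10 (red) libraries, with symbols for replicates and the mean ± SD (n = 3) beside them. The strains do not overlap for Hspd1, Hspe1, Hspa8 and Hmgb2, and overlap for the other 6 genes.

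The mitochondrial chaperonin genes were both lower in NOD.B10. Hspe1 (ENSMUSG00000073676, chromosome 1, 55088132 to 55091307, plus strand, GRCm38) encodes HSP10, the lid of the chamber. Its level was 73.2, 75.6 and 68.1 CPM in NOD.B10 replicates 1, 2 and 3 and 111, 117 and 96.9 CPM in the BL/10 replicates. The lowest BL/10 library was thus above the highest NOD.B10 library, and the means were 72.3 ± 3.83 and 108 ± 10.2 CPM (SD, n = 3). The log2 fold change was −0.58 (SE 0.097, 95% interval −0.81 to −0.36), with an adjusted p of 0.00699 in edgeR's quasi-likelihood test. Over 18 alternative settings it lay between −0.66 and −0.53, and Hspe1 was called in 18 of 18.

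Hspd1 (ENSMUSG00000025980, chromosome 1, 55077835 to 55088243, minus strand) encodes HSP60, the barrel of the chamber, and has been described as a ligand of Toll-like receptors. Its level was 108, 134 and 131 CPM in NOD.B10 and 159, 196 and 162 CPM in BL/10, again without overlap. The means were 125 ± 14.2 and 172 ± 20.4 CPM (SD, n = 3), with a log2 fold change of −0.47 (SE 0.13, 95% interval −0.76 to −0.17) and an edgeR adjusted p of 0.0414. This call was the least stable of the 4. It was lost without NOD.B10 replicate 1, 2 or 3, without BL/10 replicate 2 or 3 and without the libraries labelled 36 weeks (log2 fold change −0.35, edgeR adjusted p = 0.247), and over the 6 leave-one-out fits the log2 fold change was between −0.53 and −0.37.

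The exons of the 2 genes overlap over 112 bases, and reads there were left out for both. The ratio of Hspe1 to Hspd1 in CPM was 0.675, 0.562 and 0.518 in the NOD.B10 libraries and 0.698, 0.596 and 0.599 in the BL/10 libraries. The ratios of the strains overlapped, as did the intervals of the 2 log2 fold changes. Of 12 other mitochondrial chaperones and proteases tested, none was higher and 1 was lower, against 9.11% and 8.22% of all tested genes. The lower gene was Htra2, a stress protease of the intermembrane space (log2 fold change −0.38, edgeR adjusted p = 0.0304). In 11 of the 12 the log2 fold change was negative, with a median of −0.13. Hspa9, the mitochondrial HSP70 gene, was at 187 ± 4.15 CPM in NOD.B10 and 216 ± 15.1 CPM in BL/10 (SD, n = 3) and did not pass the test (log2 fold change −0.20, edgeR adjusted p = 0.173).

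Among the HSP70 genes, the constitutive gene was lower. Hspa8 (ENSMUSG00000015656, chromosome 9, 40800984 to 40805200, plus strand) encodes HSC70, the housekeeping HSP70 of the cytosol, which also uncoats clathrin vesicles. Its level was 468, 490 and 598 CPM in NOD.B10 and 701, 761 and 836 CPM in BL/10. No libraries of the 2 strains overlapped, and the means were 519 ± 69.3 and 766 ± 67.4 CPM (SD, n = 3). The log2 fold change was −0.56 (SE 0.13, 95% interval −0.87 to −0.25), with an adjusted p of 0.0268 in edgeR's quasi-likelihood test. The call was lost without NOD.B10 replicate 1 or 2, without BL/10 replicate 2 or 3 (log2 fold changes from −0.57 to −0.49, edgeR adjusted p from 0.0681 to 0.126), and without the libraries labelled 36 weeks (log2 fold change −0.44, edgeR adjusted p = 0.213). The exons of Hspa8 overlap those of 3 small nucleolar RNA genes over 262 bases, which took no part in its count.

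The stress-inducible HSP70 genes had the lowest counts of the 10 genes, and neither passed the test. Hspa1a (ENSMUSG00000091971, chromosome 17, 34969190 to 34972156, minus strand) was read 5, 10 and 7 times in the NOD.B10 libraries and 21, 7 and 28 times in the BL/10 libraries. BL/10 replicate 2 was within the NOD.B10 range, and the other 2 BL/10 libraries were above it. The means were 0.436 ± 0.162 and 1.07 ± 0.564 CPM (SD, n = 3), and the log2 fold change of −1.31 (SE 0.49, 95% interval −2.44 to −0.18) did not pass the test (edgeR adjusted p = 0.103). Without BL/10 replicate 2 it did (log2 fold change −1.64, edgeR adjusted p = 0.0435). Hspa1b (ENSMUSG00000090877, chromosome 17, 34956436 to 34959238, minus strand), which encodes an almost identical protein 9951 bases away, was read 25, 32 and 56 times in the NOD.B10 libraries and 47, 28 and 74 times in the BL/10 libraries. These libraries overlapped widely, and the means were 2.20 ± 0.851 and 2.88 ± 1.20 CPM (SD, n = 3). The log2 fold change was −0.39 (SE 0.37, 95% interval −1.26 to 0.48, edgeR adjusted p = 0.500).

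Reads common to both genes were in neither count. The sum of both counts, which still lacks those reads, was also tested. It was 30, 42 and 63 in NOD.B10 and 68, 35 and 102 in BL/10, with a log2 fold change of −0.58 (SE 0.37, 95% interval −1.44 to 0.28, edgeR adjusted p = 0.302). This interval includes both no difference and a decrease larger than that of Hspa8, so a change was not shown. Part of the exons of Hspa1a (564 bases) also overlaps the gene Gm20481.

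Among the 10 genes, the partners of HSP70 and the HSP90 gene did not pass the test. Dnajb1 (ENSMUSG00000005483, chromosome 8, 83608175 to 83611902, plus strand) encodes HSP40, the inducible J protein that brings clients to HSP70. Its level was 99.2, 118 and 91.6 CPM in NOD.B10 and 111, 149 and 158 CPM in BL/10, where only BL/10 replicate 1 fell within the NOD.B10 range. The means were 103 ± 13.4 and 139 ± 25.1 CPM (SD, n = 3), and the log2 fold change was −0.44 (SE 0.16, 95% interval −0.80 to −0.08, edgeR adjusted p = 0.0917). It passed the threshold with limma-voom (adjusted p = 0.0442) and without BL/10 replicate 1 (edgeR adjusted p = 0.0149), where both BL/10 libraries were labelled 36 weeks. Without the libraries labelled 36 weeks its log2 fold change was −0.11.

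Hsph1 (ENSMUSG00000029657, chromosome 5, 149614287 to 149636376, minus strand) encodes HSP105, the nucleotide exchange partner of HSP70. Its level was 66.3, 85.5 and 105 CPM in NOD.B10 and 72.8, 90.8 and 126 CPM in BL/10. Each strain covered most of the range of the other, with means of 85.5 ± 19.2 and 96.6 ± 27.3 CPM (SD, n = 3). The log2 fold change was −0.18 (SE 0.23, 95% interval −0.71 to 0.35, edgeR adjusted p = 0.621), and it became positive without BL/10 replicate 3 (0.06) and without the libraries labelled 36 weeks (0.23).

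Hsp90aa1 (ENSMUSG00000021270, chromosome 12, 110690605 to 110702728, minus strand), the inducible cytosolic HSP90 gene, was at 251, 316 and 316 CPM in NOD.B10 and 355, 428 and 279 CPM in BL/10. BL/10 replicate 3 lay inside the NOD.B10 range. The means were 295 ± 37.6 and 354 ± 74.5 CPM (SD, n = 3), with a log2 fold change of −0.27 (SE 0.17, 95% interval −0.67 to 0.14, edgeR adjusted p = 0.315). Its constitutive counterpart Hsp90ab1 was at 1100 ± 63.9 CPM in NOD.B10 and 1309 ± 72.2 CPM in BL/10 (SD, n = 3) and also did not pass (log2 fold change −0.25, edgeR adjusted p = 0.155).

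**Figure D3:**
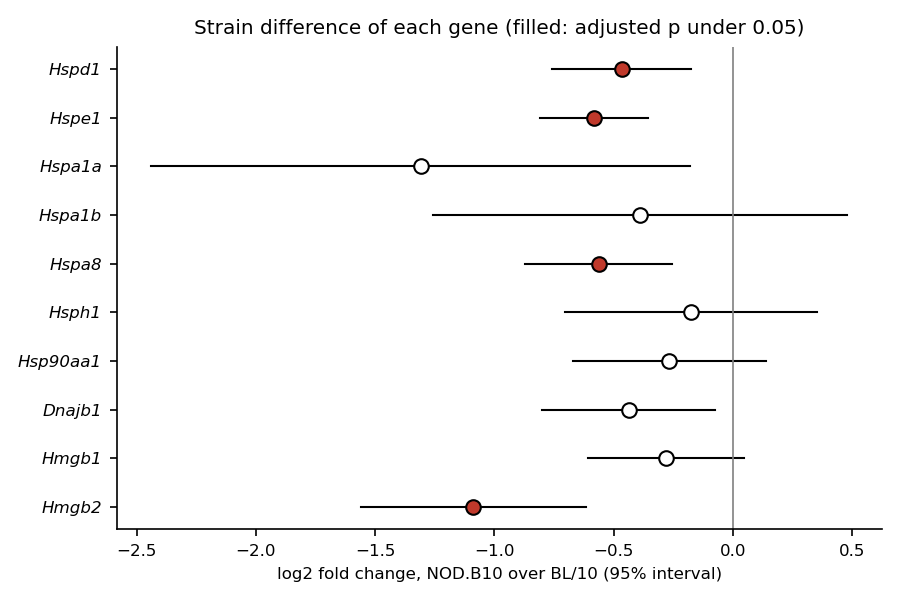
Points give the log2 fold change of each gene, NOD.B10 over BL/10 (horizontal axis), with its 95% interval as a line, and filled points have an edgeR adjusted p under 0.05. All 10 points lie below 0, the intervals of Hspa1b, Hsph1, Hsp90aa1 and Hmgb1 include 0, and Hspa1a has the widest interval (−2.44 to −0.18).

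Of the HMGB genes, Hmgb2 was lower in NOD.B10 and Hmgb1 did not pass the test. Hmgb2 (ENSMUSG00000054717, chromosome 8, 57511843 to 57515999, plus strand) encodes a DNA-bending protein that is most abundant in dividing and immature cells. Its level was 173, 236 and 160 CPM in NOD.B10 and 319, 493 and 399 CPM in BL/10. The strains did not overlap, and the means were 190 ± 40.9 and 403 ± 87.1 CPM (SD, n = 3). The log2 fold change was −1.09 (SE 0.20, 95% interval −1.56 to −0.62), with an adjusted p of 0.0108 in edgeR's quasi-likelihood test. The call was lost without NOD.B10 replicate 1 (log2 fold change −1.03, edgeR adjusted p = 0.0569), without NOD.B10 replicate 3 (−0.97, 0.0548) and without the libraries labelled 36 weeks (log2 fold change −0.75, edgeR adjusted p = 0.108).

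Hmgb1 (ENSMUSG00000066551, chromosome 5, 149046702 to 149184489, minus strand), the best known nuclear danger signal, was at 46.9, 54.7 and 48.5 CPM in NOD.B10 and 57.5, 73.6 and 51.3 CPM in BL/10. BL/10 replicate 3 lay inside the NOD.B10 range. The means were 50.0 ± 4.14 and 60.8 ± 11.5 CPM (SD, n = 3), and the log2 fold change was −0.28 (SE 0.14, 95% interval −0.61 to 0.05, edgeR adjusted p = 0.201). Its value rests on the reads that could be told from its many processed copies, of which 129 pseudogenes share words with it.

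Per length, the ratio of Hmgb2 to Hmgb1 was lower in all NOD.B10 libraries than in any BL/10 library. In TPM (counts per exon length, scaled to the same total in each library), Hmgb2 was 6.89, 8.05 and 6.14 times Hmgb1 in the NOD.B10 libraries and 10.3, 12.5 and 14.5 times in the BL/10 libraries. An exact permutation test of 3 against 3 libraries cannot give a two-sided p below 0.1, and this ratio was not tested further.

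Marker genes of dividing, myeloid and erythroid cells were set beside Hmgb2. In 20 of 20 proliferation genes the log2 fold change was negative, with a median of −0.67, and 1 passed the test, Rrm2, a subunit of ribonucleotide reductase (log2 fold change −1.15, edgeR adjusted p = 0.025). DESeq2 called 10 of the 20 lower, and without BL/10 replicate 1 edgeR called 15. Both BL/10 libraries of that edgeR fit were labelled 36 weeks, so labelled age cannot be told apart from strain there. The summed level of the list was 3373, 4922 and 3131 CPM in NOD.B10 and 3951, 7797 and 5864 CPM in BL/10. These sums overlapped between the strains where Hmgb2 did not, and within each strain they ranked the libraries in the same order as Hmgb2. Of 14 neutrophil genes, 12 were lower, while Cxcr2 (log2 fold change 0.58, edgeR adjusted p = 0.106) and Csf3r (−0.008, 0.987) did not pass. The sum of all 14 (2429, 2688 and 2344 CPM against 6445, 13523 and 11826 CPM) ranked the 6 libraries in the same order as Hmgb2. Erythroid genes summed to 43490, 51701 and 29040 CPM in NOD.B10 and 32017, 64127 and 71912 CPM in BL/10. The part of these cells in the level of Hmgb2 was not tested.

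The levels of the 10 genes were compared with each other in TPM. In NOD.B10 spleens the order was Hspa8 (297 ± 50.8 TPM), Hsp90aa1 (178 ± 24.7), Hmgb2 (167 ± 30.0), Hspe1 (116 ± 1.76), Hspd1 (112 ± 13.7), Dnajb1 (108 ± 10.1), Hsph1 (28.1 ± 7.12), Hmgb1 (23.6 ± 1.48), Hspa1b (1.88 ± 0.796) and Hspa1a (0.347 ± 0.119; SD, n = 3 for each). The library ranges of neighbors overlapped between Hsp90aa1 and Hmgb2, among Hspe1, Hspd1 and Dnajb1, and between Hsph1 and Hmgb1, so those orders are not resolved. In BL/10 spleens Hmgb2 was next to Hspa8, with 338 ± 65.0 TPM against 417 ± 33.5 TPM (SD, n = 3), and these overlapped. Hsp90aa1 (204 ± 40.4 TPM), Hspe1 (166 ± 15.2), Hspd1 (147 ± 14.2) and Dnajb1 (139 ± 22.8) followed with overlapping neighbors. Hsph1 (30.0 ± 8.33 TPM) and Hmgb1 (27.3 ± 4.68) also overlapped, and Hspa1b (2.33 ± 0.974) and Hspa1a (0.818 ± 0.436) were again last. Genes with many shared words are understated on this scale.

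Within a strain, the genes did not follow one order of libraries. NOD.B10 replicate 1 had the lowest level of all 6 libraries for 7 of the 10 genes, and NOD.B10 replicate 3 for the other 3 (Hspe1, Dnajb1 and Hmgb2). BL/10 replicate 2 was highest for Hspd1, Hspe1, Hsp90aa1, Hmgb1 and Hmgb2, and BL/10 replicate 3 for Hspa1a, Hspa1b, Hspa8, Hsph1 and Dnajb1. In sum the 10 genes took 0.131% to 0.158% of all counts in NOD.B10 libraries and 0.190% to 0.220% in BL/10 libraries.

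As a description of pattern, the 3 genes with the highest Pearson r of log2 CPM over the 6 libraries were taken for 4 of the genes, out of 9899 protein-coding genes with a mean of at least 10 CPM. These 6 points share their libraries and their depth. The highest of 9899 values over 6 points can be high without any link between the genes, and no such link was tested. For Hspd1 they were Rtel1, a DNA helicase of telomeres (r = 0.995), Cct3, a subunit of the cytosolic chaperonin TRiC (0.994), and Tango2 (0.992). For Hspa8 they were Bloc1s5 (r = 0.993), the HSP90 gene Hsp90ab1 (0.986) and Padi4, which encodes a deiminase of neutrophils (0.983). For Hspa1b, with only 25 to 74 counts in a library, they were Ppp5c, a phosphatase bound by HSP90 (r = 0.991), Ston1 (0.977) and Akt1s1 (0.961). For Hmgb2 they were Trip13, an ATPase of the spindle checkpoint, Stard10 and Pelo, each with r of 0.999.

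Other chaperone genes were called in both directions, while over all tested genes 9.11% were called higher and 8.22% lower. Of 99 tested chaperone and heat shock factor genes outside the 10, 9 were higher and 3 lower, and the median log2 fold change was −0.09. For 63 of them it was negative. A pool was made of HSP90 and its cochaperones, J proteins, mitochondrial chaperones and the TRiC chaperonin with prefoldin. In this pool it was negative for 50 of 61, with 1 called higher, 2 called lower and a median of −0.12. Each pooled list had a negative median. The lists left out were other HSP70 and HSP110 (median 0.15), small heat shock proteins (0.14), endoplasmic reticulum chaperones (0.17) and heat shock factors (−0.12). The count of the pool thus follows from the choice of its lists and does not stand for chaperones in general.

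Among 6 other HSP70 and HSP110 genes, edgeR called 2 higher in NOD.B10 and none lower (median 0.15). The higher genes were Hspa13 (log2 fold change 0.39, edgeR adjusted p = 0.042) and Hspa12a (0.58, 0.0247). DESeq2 called 2 genes of this list higher and 1 lower. Of 20 genes of cytosolic HSP90 and cochaperones, Fkbp5, a glucocorticoid-responsive cochaperone, was higher (log2 fold change 0.62, edgeR adjusted p = 0.0146) and Bag2, a nucleotide exchange factor of HSC70, was lower (−1.24, 0.0346), with a median of −0.16. None of 15 other J proteins (median −0.08) and none of 14 genes of TRiC and prefoldin (median −0.16) passed edgeR's test, while DESeq2 called 2 and 1 of them lower. Of 7 small heat shock protein genes, Hspb1 (log2 fold change 1.61, edgeR adjusted p = 0.0157) and Hspb7 (1.74, 0.00255) were higher, from means of 3.98 and 2.51 CPM in BL/10 to 12.3 and 8.40 CPM in NOD.B10.

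Among chaperones of the endoplasmic reticulum the genes called by edgeR were higher. Of 16 tested, 4 were higher and none lower: Dnajb9 (log2 fold change 0.36, edgeR adjusted p = 0.0367), Hyou1 (0.39, 0.0396), Dnajc3 (0.41, 0.0352) and Creld2 (0.52, 0.0302), all genes of the unfolded protein response. The median of the 16 was 0.17, and DESeq2 called 5 of them higher and 1 lower. Without NOD.B10 replicate 1 edgeR called only 1 of the 16, and without BL/10 replicate 1 its count was 3. Hspa5, which encodes BiP, the HSP70 of that compartment, was at 793 ± 126 CPM in NOD.B10 and 698 ± 32.3 CPM in BL/10 (SD, n = 3) and did not pass (log2 fold change 0.18, edgeR adjusted p = 0.377). Of 11 plasma cell genes, whose cells are rich in this compartment, 6 were higher, with a summed level of 3743 to 4271 CPM in NOD.B10 and 2421 to 3057 CPM in BL/10, and their part in the values of these chaperones was not tested.

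Of 9 tested heat shock factors and regulators, none was higher (median −0.12). Hsf1, which encodes the main factor of the heat shock response, was at 39.5 ± 4.36 CPM in NOD.B10 and 32.1 ± 1.38 CPM in BL/10 (SD, n = 3) and did not pass (log2 fold change 0.30, edgeR adjusted p = 0.0834). Of the genes with a 3-unit HSE in a window, Hspd1 and Hspe1 were called and Hsph1 was not, and Hmgb2 was called without the motif in its window. Of 15 immediate early genes, which respond to handling of tissue, 1 was lower, Atf3 (log2 fold change −0.94, edgeR adjusted p = 0.0176), with a median of −0.11 and a summed level of 621 to 664 CPM in NOD.B10 and 675 to 761 CPM in BL/10. The part of handling in the levels of the heat shock genes was not tested.

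**Figure D4:**
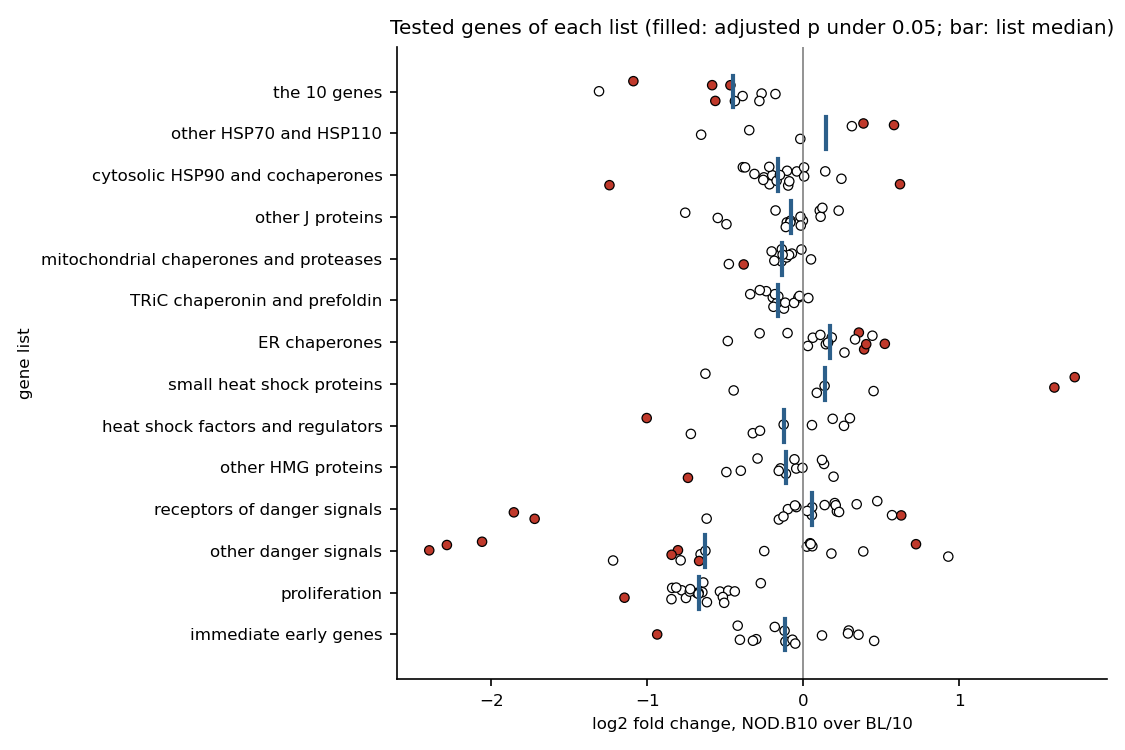
Each point is a tested gene placed by its log2 fold change, NOD.B10 over BL/10 (horizontal axis), in the list named at the left, filled where the edgeR adjusted p is under 0.05, and blue bars mark list medians. The 10 genes all lie left of 0 (median −0.45), endoplasmic reticulum chaperones lie mostly to the right (median 0.17) and proliferation genes all to the left (median −0.67).

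Among 13 other HMG genes, 1 was lower, Hmgn2, a nucleosome-binding protein gene (log2 fold change −0.74, edgeR adjusted p = 0.007), and none was higher (median −0.11). Hmgb3, a further HMGB gene, was at 32.0 ± 10.5 CPM in NOD.B10 and 44.99 ± 11.5 CPM in BL/10 (SD, n = 3) and did not pass (log2 fold change −0.49, edgeR adjusted p = 0.211).

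The list of receptors of these danger signals also held adaptors such as Myd88. Of its 20 tested genes, 1 was higher and 2 were lower, against 9.11% and 8.22% of all tested genes. Havcr2, which encodes TIM-3, was higher (log2 fold change 0.63, edgeR adjusted p = 0.00542), and Trem2 (−1.86, 0.00126) and Olr1 (−1.72, 0.0108), receptors of macrophages, were lower. Trem2 and Olr1 had low means, 1.90 and 1.47 CPM in NOD.B10 and 6.93 and 4.91 CPM in BL/10. The median of the 20 was 0.06. Tlr2 was at 28.8 ± 3.75 CPM in NOD.B10 and 25.05 ± 0.988 CPM in BL/10 (SD, n = 3; edgeR adjusted p = 0.248). Tlr4 was at 53.8 ± 7.47 and 46.2 ± 4.32 CPM (SD, n = 3; edgeR adjusted p = 0.257). Ager, which encodes the receptor RAGE, was at 2.57 ± 0.597 and 2.22 ± 0.00722 CPM (SD, n = 3; edgeR adjusted p = 0.537). For these 3 receptors the 95% intervals of the log2 fold change ran from −0.06 to 0.47, from −0.07 to 0.51 and from −0.30 to 0.72.

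Of 19 other danger signals, 1 was higher and 6 were lower, with a median of −0.63. The matrix proteoglycan gene Bgn was higher (log2 fold change 0.72, edgeR adjusted p = 0.0121), and the lower genes included Camp (−2.40, 0.00188), S100a8 (−2.29, 0.00152) and the growth factor gene Hdgf (−0.67, 0.0373). Camp and S100a8 encode proteins of neutrophil granules and cytosol, and they and 1 further lower danger signal also stand in the neutrophil list. Dcn, another matrix proteoglycan gene, was at 68.0 ± 19.9 CPM in NOD.B10 and 107 ± 22.9 CPM in BL/10 (SD, n = 3) and did not pass (log2 fold change −0.66, edgeR adjusted p = 0.0843).

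Cell type lists differed between the strains beside the heat shock genes. Of 15 T cell genes 13 were higher (median 1.22), none of 12 B cell genes passed edgeR's test (median 0.28), and 4 of 11 stromal genes were higher and 1 lower. Of 13 macrophage genes 2 were higher and 1 lower, and of 10 megakaryocyte genes 2 were lower. Of 15 erythroid genes 1 was lower, Hba-a2, which has a near-identical copy. All 14 tested pancreas genes were lower, and none of 7 adipocyte genes passed. Without NOD.B10 replicate 1 the counts were 12 for T cell, 4 for plasma cell, 7 for neutrophil and 0 for pancreas genes. Without BL/10 replicate 1 they were 8 for B cell, 8 for erythroid and 11 for the other danger signals, and 7 for HSP90 and cochaperones, where none was called without NOD.B10 replicate 1. Both BL/10 libraries that remain without BL/10 replicate 1 were labelled 36 weeks. The part of cell composition in the levels of the 10 genes was not tested.

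**Figure D5:**
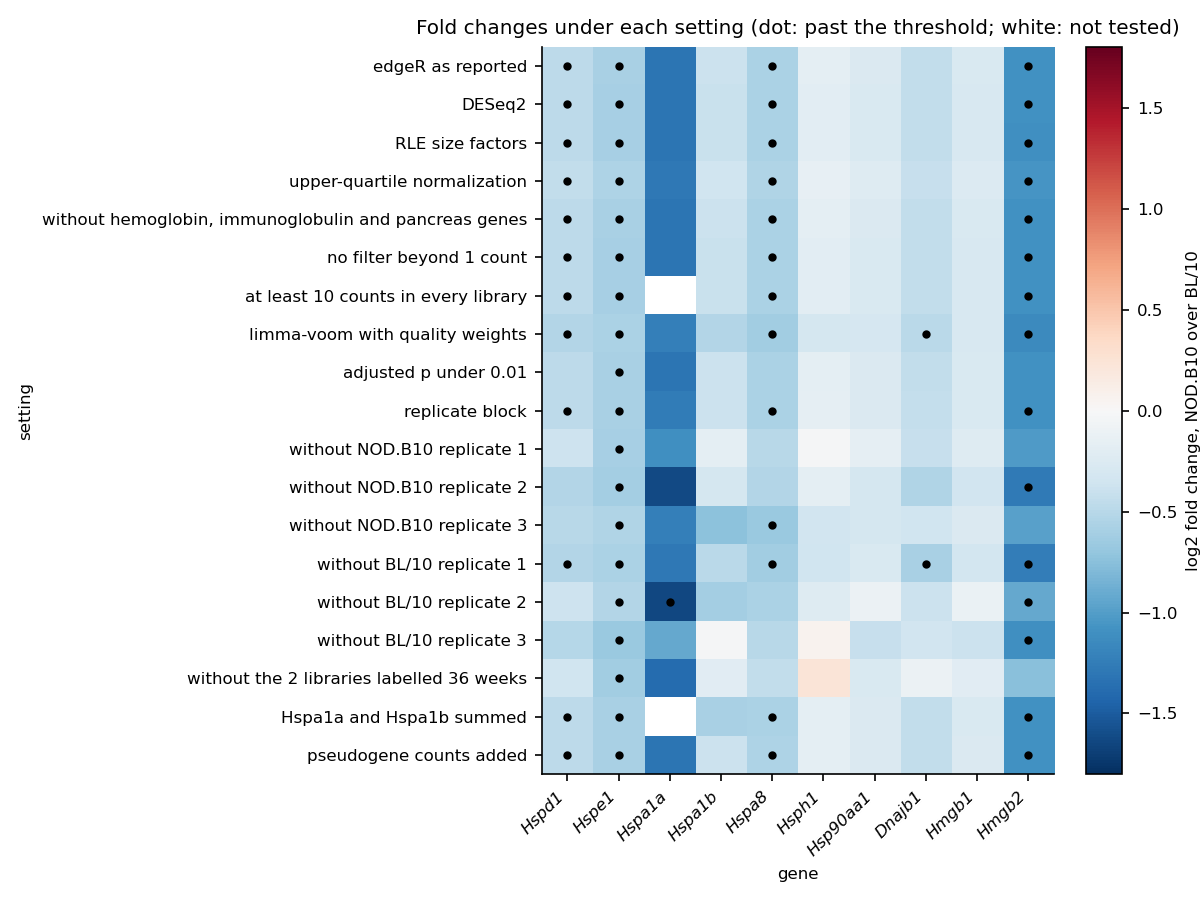
Colours give the log2 fold change, NOD.B10 over BL/10, of each gene (columns) under the reported fit and 18 alternatives (rows), and a dot marks a value past the threshold of that setting. White cells were not tested, and in the summed setting the Hspa1b column holds Hspa1a plus Hspa1b. Hspe1 has a dot in all rows, Hsph1 turns positive in 2, and Hspa1b, Hsph1, Hsp90aa1 and Hmgb1 have none.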

How the data were processed

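The samples were whole spleens of females, 3 of strain NOD.B10 and 3 of strain BL/10. The table the authors deposited holds unnormalized read counts for each gene, and it also gives the exon length of each gene. According to its header, the authors counted reads on exons with featureCounts version 1.5.1 and Ensembl annotation 84 (GRCm38). The submitters' processing notes name HISAT2 version 2.0.5 and bcl2fastq, and the paper's methods name Tophat2, so the aligner is not settled. Libraries of Myd88-deficient mice, which the header also names, were not used here. Symbols came from GENCODE M21, which matched 47224 of 47729 identifiers.

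Strain was taken from the description and column name of each library, against the title and strain field. Total counts were 16257041 to 17160323 in NOD.B10 and 15662712 to 18298451 in BL/10. Counts were filtered with filterByExpr, normalized by TMM and compared by edgeR's quasi-likelihood test (version 4.0.16, R version 4.3.3), taking BL/10 as reference level, and genes were called at a Benjamini-Hochberg adjusted p under 0.05 over 15330 genes. Standard errors were derived from each F statistic and its fold change. TPM was computed here from counts and exon lengths. Words of 50 bases were compared between transcripts only, since no genome sequence was used.

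Alternatives were DESeq2 (version 1.42.0), RLE and upper-quartile scaling, leaving out hemoglobin, immunoglobulin and pancreas genes, other filters on low counts (1 count, or at least 10 counts in every library), limma-voom with quality weights (limma version 3.58.1), a threshold of 0.01, a replicate block, leaving out each library, leaving out the 2 libraries labelled 36 weeks, and Hspa1a and Hspa1b summed. Adding pseudogene counts was chosen after seeing the data. On counts simulated for this comparison, 175 of 200 changed genes were found (77 of 100 at 2-fold and 98 of 100 at 4-fold), with 10 unchanged genes called among 15132 run. Only these 2 sizes of change were simulated, in genes above 2 CPM. Smaller changes, such as those fitted for most of the 10 genes, were not covered.

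The 10 genes and the 23 other lists were chosen with earlier results of these data known, and the lists came from general knowledge. All 10 genes are named. Of each other list, all called genes were to be named where they are 4 or fewer, otherwise the 2 highest and 2 lowest fold changes among them, and in addition Hsp90ab1, Hspa5, Hspa9, Hsf1, Hmgb3, Tlr2, Tlr4, Ager, Dcn and Bgn. Genes of cell type lists are given as counts here, apart from Hba-a2, Cxcr2 and Csf3r. The result for 1 called gene of the other lists is not reported here.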

Additional observations from a re-analysis of the deposited data

How the results depend on the processing

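Of 178 fold changes of the 10 genes under 18 alternative settings, 156 kept their direction and their side of the threshold, 17 lost the call, 3 gained it and 2 changed sign. Both changes of sign were in Hsph1, whose log2 fold change ranged from −0.36 to 0.059 with each library left out (0.059 without BL/10 replicate 3) and was 0.23 without the 2 libraries labelled 36 weeks. The count of 4 called genes among the 10 became 1 at an adjusted p under 0.01 and 1 without the libraries labelled 36 weeks, and it ranged from 1 to 5 when each library was left out in turn. It was 4 or 5 under the other settings. In the other lists, 78 genes were called, 32 at an adjusted p under 0.01, 48 without the libraries labelled 36 weeks, and 38 to 131 with each library left out. Over all genes, 2656 were called, 1035 at an adjusted p under 0.01, 1001 without the libraries labelled 36 weeks and 1269 to 4107 with each library left out. These settings differ from the reported fit in the threshold or in the libraries kept. With single libraries left out, the counts in the other lists and over all genes fell, except without BL/10 replicate 1, where they rose to 131 and 4107. Causes of these changes were not tested. The replicate numbers were shared between strains without any stated pairing, and deviations of samples with the same number correlated with r of 0.032, 0.172 and −0.084. Fitted with the replicate block, 4 of the 10 genes, 101 in the other lists and 2889 over all genes were called, and not every sample correlated best with its own number. Counts were lowest for Hspa1a and Hspa1b, with at most 28 and 74 in a library, and whether depth or the spread between mice sets their intervals was not tested.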
